A study of Rattus norvegicus with 6 samples.

Results

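The Toll-like receptors are the 9 genes Tlr1 to Tlr9, taken as the rows of the gene count table that carry those symbols, and all 9 had a row among the 19382 genes of the table. RNA was sequenced from brain tissue in 6 libraries, 3 from SD rats put through 2.5 h of ischemia and hypoxia at 7 days of age (the HI group) and 3 from a control group. The labels give neither the brain region, the interval between injury and sampling, the sex of the animals nor the age and handling of the controls, and they do not say whether the libraries came from separate animals, so that the p-values speak only of how these samples spread, and that spread may be technical. The titles of the 6 libraries name only control and HI, and not echinatin, the compound named in the title of the series.

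Toll-like receptors are membrane proteins of innate immunity that recognise microbial products and molecules released by damaged cells. Tlr1, Tlr2, Tlr4, Tlr5 and Tlr6 act at the cell surface and mostly bind lipids and proteins, whereas Tlr3, Tlr7, Tlr8 and Tlr9 sit in endosomes and bind nucleic acids. They signal through the adaptor Myd88, except for Tlr3, which uses Ticam1 (TRIF), and Tlr4, which uses both, and the signal ends in NF-kB and interferon regulatory factors. In the brain most of them are found chiefly in microglia, the resident macrophages, and Tlr3 also in astrocytes.

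The libraries held 14324303 to 14927469 reads in HI and 13922663 to 14692505 in control. A level is given below in CPM, counts scaled to a common library size with the TMM factor of edgeR, and no length of a transcript was used, so levels of different genes are not compared with each other. At this depth a count of 0 allows up to 3 reads, which stood for 0.182 to 0.201 CPM in HI and 0.221 to 0.227 CPM in control, a limit that covers counting error only. Neuron markers, which check the labelled tissue, were present in all libraries, with summed levels of 2773 to 4994 CPM in HI and 7006 to 8714 CPM in control. Reads of Y-linked genes numbered 1729 and 1824 in HI 2 and HI 3 and 1356 in control 3, and at most 3 in each of the other libraries.

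The comparison of HI with control asks which transcripts of the injured brain differ. Of the 9 receptors 4 rose in HI, namely Tlr1, Tlr3, Tlr6 and Tlr7 (edgeR quasi-likelihood test, Benjamini-Hochberg adjusted p below 0.05 over 14959 genes), and 0 fell. Of these, Tlr1 had at most 3 reads in a control and entered the test only through its HI reads, so that its call carries no weight. Tlr2, Tlr4 and Tlr9 had fold changes above 2 that did not pass, and Tlr5 and Tlr8 had too few reads for the filter on low counts. Of all genes tested 6.83% passed as higher in HI and 7.04% as lower. In these libraries all 3 HI values lay above all 3 controls for 8 of the 9 receptors, Tlr2 being the exception, against 19.2% of the 19086 genes with at least 1 read. HI 3 had the highest and HI 1 the lowest level of the HI libraries for 8 of the 9, Tlr1 being the exception. The share of all genes with this order within HI alone is not given. HI 3 above HI 2 above HI 1 above every control held for 7 of the 9. It held for 11.9% of the 14959 genes tested, which do not include Tlr5 and Tlr8. Summed over the 9 genes, reads came to 377, 606 and 800 in HI 1, 2 and 3, against 129, 175 and 190 in controls 1, 2 and 3. Leaving out single libraries ended the calls: by edgeR 0 receptors passed without HI 2, without control 1 or without control 2, 1 passed without control 3, 2 without HI 3 and 6 without HI 1. The calls over the whole table moved likewise, with 0 genes called higher in the first 3 of these fits, 608 of 15335 without control 3, 245 of 15079 without HI 3 and 2097 of 15265 without HI 1. In the first 3 fits 6 of 7, 5 of 8 and 8 of 8 fitted receptors had an unadjusted edgeR p below 0.05. The share of all genes at that threshold is not given for these fits, so these counts cannot be set against the whole table. The share of 19.1% as higher in HI belongs to the fit of all 6 libraries and does not stand in for it. DESeq2, run on all 6 libraries, called 5 of the 9, with 12.5% of all genes called as higher.

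**Figure D1:**
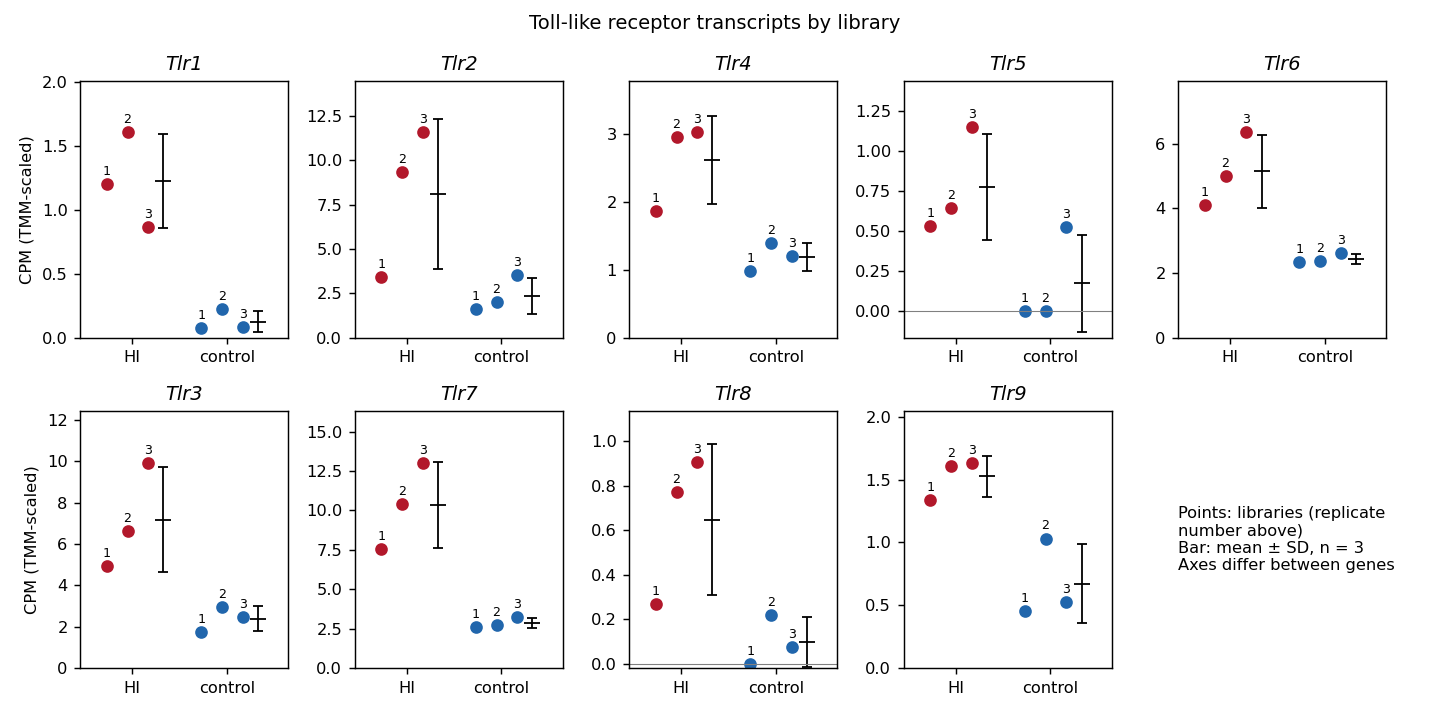
Level of each Toll-like receptor transcript (vertical axis, TMM-scaled CPM, a separate scale for each gene) in the HI libraries (red, left) and the control libraries (blue, right), with the replicate number above each point and the mean ± SD (n = 3) as a bar. The HI points lie above the control points for 8 of the 9 genes, and for Tlr2 HI 1 (3.41 CPM) lies just under control 3 (3.52 CPM).

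Among the receptors of the cell surface, Tlr4 is the receptor for bacterial lipopolysaccharide and, together with Myd88 and NF-kB, the one named in the title of the series. It had 28, 46 and 50 reads in HI 1, 2 and 3, against 13, 19 and 16 reads in controls 1, 2 and 3. In scaled terms these were 1.87, 2.96 and 3.03 CPM in HI and 0.985, 1.40 and 1.20 CPM in control. The groups did not overlap, and the lowest HI library stood 1.34 times above the highest control. The log2 fold change was 1.13 ± 0.33 (SE), a fold of 2.19 with a 95% interval, not adjusted for the number of genes, of 1.26 to 3.80, and it did not pass after adjustment over all genes (edgeR adjusted p = 0.0646, unadjusted p = 0.0126).

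Tlr2 recognises bacterial lipoproteins and works as a pair with Tlr1 or with Tlr6. It had 51, 145 and 191 reads in HI and 21, 27 and 47 reads in control, or 3.41, 9.32 and 11.6 CPM in HI and 1.59, 1.99 and 3.52 CPM in control. HI 1 stood within the range of the controls while HI 2 and HI 3 were well above it. The log2 fold change of 1.77 ± 0.53 (fold 3.42, 95% interval 1.42 to 8.21) did not pass (edgeR adjusted p = 0.0661), and without HI 1 it was 2.13 and passed (edgeR adjusted p = 0.021). DESeq2 called it on all 6 libraries (adjusted p = 0.0105), while limma-voom did not (adjusted p = 0.114). It passed in 3 of 15 alternative settings, and without any other single library it did not (log2 fold change from 1.43 to 2.13, edgeR adjusted p from 0.0706 to 0.188).

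Both partners of Tlr2 passed the test. Tlr6, which with Tlr2 senses diacylated lipopeptides, had 61.4, 77.6 and 105 estimated reads in HI and 31, 32 and 34.9 in control. The controls were close together at 2.35, 2.36 and 2.62 CPM, and the HI libraries, at 4.11, 4.99 and 6.35 CPM, were all higher. Its log2 fold change was 1.08 ± 0.26 (edgeR adjusted p = 0.0442), the smallest of the 7 tested receptors, with an SD of 1.13 CPM in HI and 0.152 CPM in control. Tlr6 passed in 7 of 15 alternative settings, including 1 of the 6 that left out a library. Tlr1, which with Tlr2 senses triacylated lipopeptides, was nearly at the limit of detection in the controls, with 1, 3 and 1.07 reads, and had 17.99, 24.99 and 14.3 reads in HI. These were 1.20, 1.61 and 0.868 CPM in HI and 0.0757, 0.221 and 0.0801 CPM in control, without overlap. Its fitted log2 fold change of 3.21 ± 0.57 (edgeR adjusted p = 0.0262) is uncertain in size, since the ratio of summed reads was 9.73 with an exact 95% counting interval of 3.93 to 31.1. Tlr1 entered the test only through its HI reads, so that its call carries no weight. Reads of Tlr1 and Tlr6 include fractions, as when a read that matches several genes is divided among them, and in the rat annotation of assembly GRCr8 Tlr6, Tlr1 and Tlr10 are next to each other, so that the values of Tlr1 and Tlr6 are uncertain.

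Tlr5, the receptor for bacterial flagellin, had 8, 10 and 19 reads in HI and 0, 0 and 7 in control, or 0.535, 0.643 and 1.15 CPM in HI and 0, 0 and 0.524 CPM in control. The groups did not overlap, but HI 1 and control 3 were almost level. The ratio of summed reads was 4.51 (exact 95% counting interval 1.99 to 11.99), and in the edgeR fit without a filter the difference did not pass (adjusted p = 0.27, unadjusted p = 0.114).

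Among the endosomal receptors, Tlr7, which binds single-stranded RNA, had the smallest p-value of the family. It had 113, 162 and 215 reads in HI 1, 2 and 3, against 34, 37 and 43 reads in controls 1, 2 and 3. The levels were 7.56, 10.4 and 13.03 CPM in HI and 2.58, 2.72 and 3.22 CPM in control, so that the lowest HI library stood 2.35 times above the highest control. The log2 fold change was 1.86 ± 0.27, a fold of 3.63 with a 95% interval of 2.33 to 5.67 (edgeR adjusted p = 0.0215), and by the size of its p-value it ranked 198 of 14959 genes. It was the receptor called in the most alternative settings, 12 of 15, including 3 of the 6 that left out a library (edgeR adjusted p from 0.0108 to 0.0929 in those 6).

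Tlr3, which binds double-stranded RNA, had 74, 103 and 164 reads in HI and 23, 40 and 33 reads in control. At 4.95, 6.62 and 9.94 CPM the HI libraries all lay above the controls, at 1.74, 2.95 and 2.47 CPM. The log2 fold change was 1.58 ± 0.35, a 2.998-fold rise (edgeR adjusted p = 0.0369). Tlr3 passed in 9 of 15 alternative settings, including 1 of the 6 that left out a library. Its adaptor Ticam1, named after its values were seen, averaged 2.59 ± 1.94 CPM in HI and 0.595 ± 0.378 CPM in control (SD, n = 3 each) and did not pass (log2 fold change 2.11 ± 0.78, edgeR adjusted p = 0.105).

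Tlr9, which binds DNA with unmethylated CpG sites, had 20, 25 and 27 reads in HI and 6, 14 and 7 in control. The HI libraries were the closest together of any receptor, at 1.34, 1.61 and 1.64 CPM, whereas control 2, at 1.03 CPM, stood apart from controls 1 and 3, at 0.454 and 0.524 CPM. The log2 fold change of 1.18 ± 0.41 (fold 2.26, 95% interval 1.14 to 4.49) did not pass (edgeR adjusted p = 0.0948), and Tlr9 also entered the test only through its HI reads. Tlr8, a receptor for single-stranded RNA in humans that lies beside Tlr7 on the X chromosome in the rat annotation, had 4, 12 and 15 reads in HI and 0, 3 and 1 in control. These stood for 0.267, 0.771 and 0.909 CPM in HI and 0, 0.221 and 0.0749 CPM in control. The ratio of summed reads was 6.61 (exact 95% counting interval 2.34 to 25.8), and without a filter the difference did not pass by edgeR (adjusted p = 0.117, unadjusted p = 0.028).

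**Figure D2:**
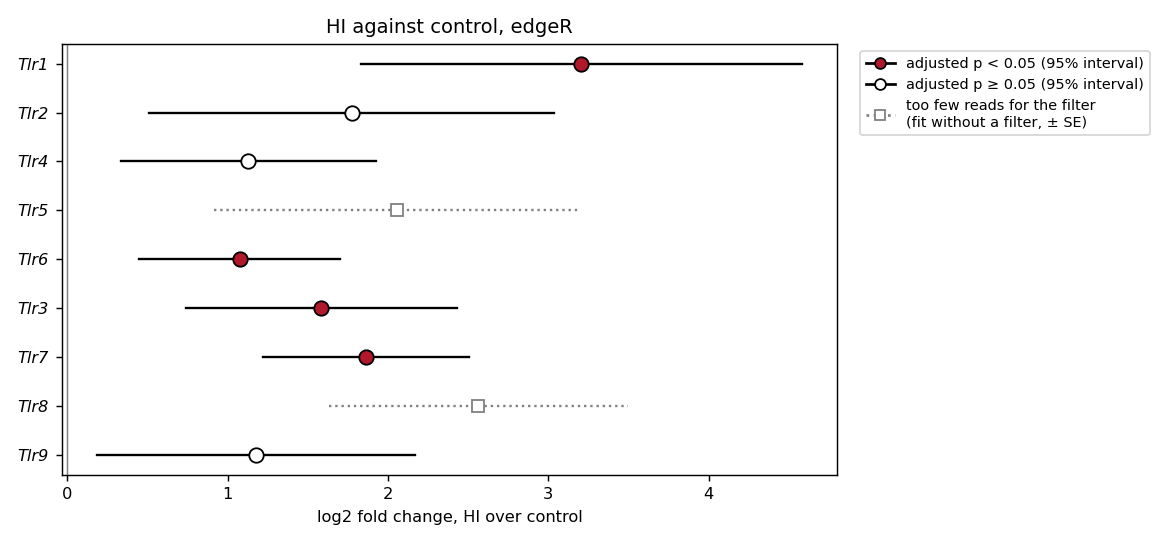
Log2 fold change of each receptor, HI over control (horizontal axis), from the edgeR fit with its 95% interval for the 7 tested genes (filled red where the adjusted p is below 0.05, open otherwise), and from the fit without a filter with ± SE for Tlr5 and Tlr8 (grey squares). All 9 values lie above 0, from 1.08 for Tlr6 to 3.21 for Tlr1, where 53.3% of all genes tested and 52.8% of all genes fitted without a filter lie above 0.

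In the fit without a filter, which holds all 9 receptors, all 9 log2 fold changes were at least 1, against 18.9% of 19050 genes. In that fit 3 receptors passed, Tlr1, Tlr3 and Tlr7, against 4.44% of genes called as higher, and 8 of 9 had an unadjusted p below 0.05, against 15.5% of genes. The median log2 fold change of the 9 was 1.72 and that of all genes 0.04, a description that says nothing of what is particular to the family. Among libraries without Y-linked reads (HI 1 against controls 1 and 2) and among those with them (HI 2 and HI 3 against control 3), all 9 receptors were higher in HI. For every receptor but Tlr2 this direction was fixed beforehand, since all HI values lay above all controls. The split therefore tests nothing about sex for them. The differences in mean log2 CPM ran from 0.61 for Tlr4 to 2.29 for Tlr5 without such reads and from 0.60 for Tlr5 to 2.63 for Tlr1 with them. Those of the X-linked Tlr7 were 1.47 and 1.81. Each of these rests on a lone library in 1 of the groups.

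The sequence just upstream of a gene is where the factors that set its transcription bind, and since all 9 receptors had positive differences, the windows of 250 bases before to 50 bases after the transcript start were read from the RefSeq promoters of assembly GRCr8, which matched all 9 genes by gene number. These 3 are shown because Tlr7 had the smallest p-value of the family, Tlr4 is the receptor of the series title and Tlr2 held the only match to NF-kB. Capitals mark matches to GAGGAA (a core of the myeloid factor PU.1) or to the NF-kB consensus, on either strand.
Tlr7 (chrX:30644176-30644475, plus strand): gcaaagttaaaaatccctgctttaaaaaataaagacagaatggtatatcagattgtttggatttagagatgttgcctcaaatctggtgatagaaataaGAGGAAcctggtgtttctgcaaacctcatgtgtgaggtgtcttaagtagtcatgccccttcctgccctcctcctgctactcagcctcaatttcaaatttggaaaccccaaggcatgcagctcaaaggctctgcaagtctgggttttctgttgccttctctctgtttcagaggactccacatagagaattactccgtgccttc
Tlr4 (chr5:85160997-85161296, plus strand): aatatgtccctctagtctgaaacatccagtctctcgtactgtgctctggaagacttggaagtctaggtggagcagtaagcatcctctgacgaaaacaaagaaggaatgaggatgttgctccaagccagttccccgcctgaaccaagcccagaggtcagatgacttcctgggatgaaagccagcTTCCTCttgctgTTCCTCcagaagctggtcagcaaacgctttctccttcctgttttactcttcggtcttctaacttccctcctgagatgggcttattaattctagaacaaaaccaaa
Tlr2 (chr2:171504508-171504807, minus strand): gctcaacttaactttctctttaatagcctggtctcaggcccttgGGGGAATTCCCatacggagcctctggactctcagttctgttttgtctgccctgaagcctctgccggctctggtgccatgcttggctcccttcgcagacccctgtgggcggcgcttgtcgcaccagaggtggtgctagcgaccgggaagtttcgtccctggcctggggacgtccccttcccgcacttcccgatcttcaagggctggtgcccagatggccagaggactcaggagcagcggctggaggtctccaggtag

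Tlr4 held GAGGAA at 2 places, both on the opposite strand, where it reads TTCCTC, and Tlr7 held it once. The windows of Tlr3, Tlr6, Tlr8 and Tlr9 held it as well, so that 6 of the 9 receptors had a match, against 27.6% of 33469 promoter windows of the same length. The NF-kB consensus matched in Tlr2 alone, against 4.37% of all windows, in a run of overlapping matches that starts at position -206 from the transcript start. The interferon-response motif, GAAA and again GAAA after any 2 bases, matched in 0 of the 9 windows and in 3.92% of all windows. These are matches of letters and not measured binding sites, and GAGGAA does not overlap the other motifs in these windows. The windows of Tlr1, Tlr2 and Tlr5 held no GAGGAA. Spi1, a gene of the myeloid lineage that encodes PU.1, rose 3.43-fold in HI, and whether PU.1 acts on these receptors was not tested.

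The pathway around the receptors was described by 7 lists of 83 genes in all, of which 79 were tested. In HI 23 of these rose and 2 fell, their median log2 fold change being 0.51 against 0.04 over all genes tested, where 6.83% of all genes rose and 7.04% fell. Each of the 7 lists held at least 1 of the genes that rose, from 1 of 20 kinases and ubiquitin ligases, a share below that of all genes, to 6 of 12 trafficking proteins. The counts rested on single libraries: 0 pathway genes were called higher without HI 2, without control 1 or without control 2, as were 0 genes of the whole table, and 8 without HI 3, 15 without control 3 and 35 without HI 1. Those called lower numbered 0 without HI 2, HI 3, control 1 or control 2 and with the replicate number as a block, and 4 without HI 1.

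Of the co-receptors and binding partners 3 of 6 tested rose and 1 fell. Cd14, which hands lipopolysaccharide to Tlr4, stood at 6.02, 13.9 and 18.5 CPM in HI 1, 2 and 3, against 1.44, 0.883 and 0.674 CPM in controls 1, 2 and 3 (12.7-fold, edgeR adjusted p = 0.0215). Cd180, a Toll-like relative without a signalling domain, averaged 15.9 ± 3.82 CPM in HI and 4.78 ± 1.24 CPM in control (SD, n = 3 each, edgeR adjusted p = 0.0234). Scarb1, a lipoprotein receptor that also binds lipopolysaccharide, fell to 58.9 ± 1.31 CPM in HI, against 79.9 ± 4.42 CPM in control (edgeR adjusted p = 0.0317). Ly96, the partner that Tlr4 needs to bind lipopolysaccharide and named here after its values were seen, averaged 0.919 ± 0.523 CPM in HI and 0.551 ± 0.350 CPM in control and did not pass (log2 fold change 0.74 ± 0.68, edgeR adjusted p = 0.468).

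Of the proteins that fold the receptors or bring them to endosomes and cut them there, 6 of 12 rose and 0 fell. Unc93b1, the chaperone that carries the endosomal receptors out of the endoplasmic reticulum, stood at 12.04, 18.9 and 27.2 CPM in HI and 5.60, 4.05 and 5.69 CPM in control (3.79-fold, edgeR adjusted p = 0.0247). The groups were well apart. Lgmn, an endosomal protease that takes part in cutting Tlr7 and Tlr9, rose 2.94-fold (edgeR adjusted p = 0.0271), and Slc15a3, an endolysosomal peptide transporter, 3.27-fold (edgeR adjusted p = 0.0345).

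Among the 6 TIR-domain and related adaptors 2 rose and 0 fell. Pik3ap1 (BCAP), which links receptors to phosphoinositide kinase, averaged 24.8 ± 7.88 CPM in HI and 6.74 ± 1.58 CPM in control (edgeR adjusted p = 0.0235), and Myd88 rose 2.94-fold (edgeR adjusted p = 0.0305). Ticam2, the bridge from Tlr4 to Ticam1, averaged 2.06 ± 0.232 CPM in HI and 0.872 ± 0.217 CPM in control and did not pass (edgeR adjusted p = 0.0525).

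Of 20 kinases and ubiquitin ligases downstream of the adaptors 1 rose and 0 fell, and the median log2 fold change was 0.15. The share that rose, 5.0%, was no larger than the 6.83% of all genes tested. The call was Tab2, an adaptor of the kinase Map3k7, at 101 ± 5.81 CPM in HI and 77.8 ± 4.53 CPM in control (1.29-fold, edgeR adjusted p = 0.0479). Irak4, the first kinase of the Myd88 complex, had a log2 fold change of 1.20 ± 0.38 (edgeR adjusted p = 0.0736) and Traf3, a ligase of the interferon branch, one of 0.56 ± 0.17 (edgeR adjusted p = 0.071), and neither passed.

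Of 11 transcription factors 4 rose and 0 fell. Irf7, which drives interferon genes below Tlr7 and Tlr9, stood at 4.15, 9.96 and 22.8 CPM in HI and 0.833, 0.957 and 0.374 CPM in control (edgeR adjusted p = 0.0262). The HI libraries differed more among themselves than from the nearest control by fold, although the groups did not overlap. Irf8, a factor of the myeloid lineage, rose 4.14-fold (edgeR adjusted p = 0.0219). Spi1, also of that lineage, averaged 11.8 ± 3.69 CPM in HI and 3.44 ± 0.584 CPM in control (edgeR adjusted p = 0.0243).

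Of 14 negative regulators 5 rose and 1 fell. Il1rl1, a receptor for interleukin-33 that dampens Toll-like signalling, rose 2.44-fold (edgeR adjusted p = 0.0301), and Cyld, a deubiquitinase, fell to 39.7 ± 3.61 CPM in HI, against 56.7 ± 1.37 CPM in control (edgeR adjusted p = 0.0328). Atf3, a stress-induced repressor with shared reads, had at most 5.87 reads in a control and entered the test through its HI reads. It averaged 8.85 ± 6.27 CPM in HI and 0.346 ± 0.0852 CPM in control (edgeR adjusted p = 0.0235). Of the endogenous ligands 2 of 10 tested rose and 0 fell. Lgals3, a lectin released by phagocytes, averaged 61.0 ± 35.9 CPM in HI and 1.18 ± 0.818 CPM in control (edgeR adjusted p = 0.0207), and Hspa1b, a heat shock protein with shared reads, averaged 44.4 ± 24.0 CPM in HI and 2.80 ± 0.515 CPM in control (edgeR adjusted p = 0.0215). Bgn, a matrix proteoglycan, missed the threshold, at a log2 fold change of 1.81 ± 0.49 (edgeR adjusted p = 0.0545).

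**Figure D3:**
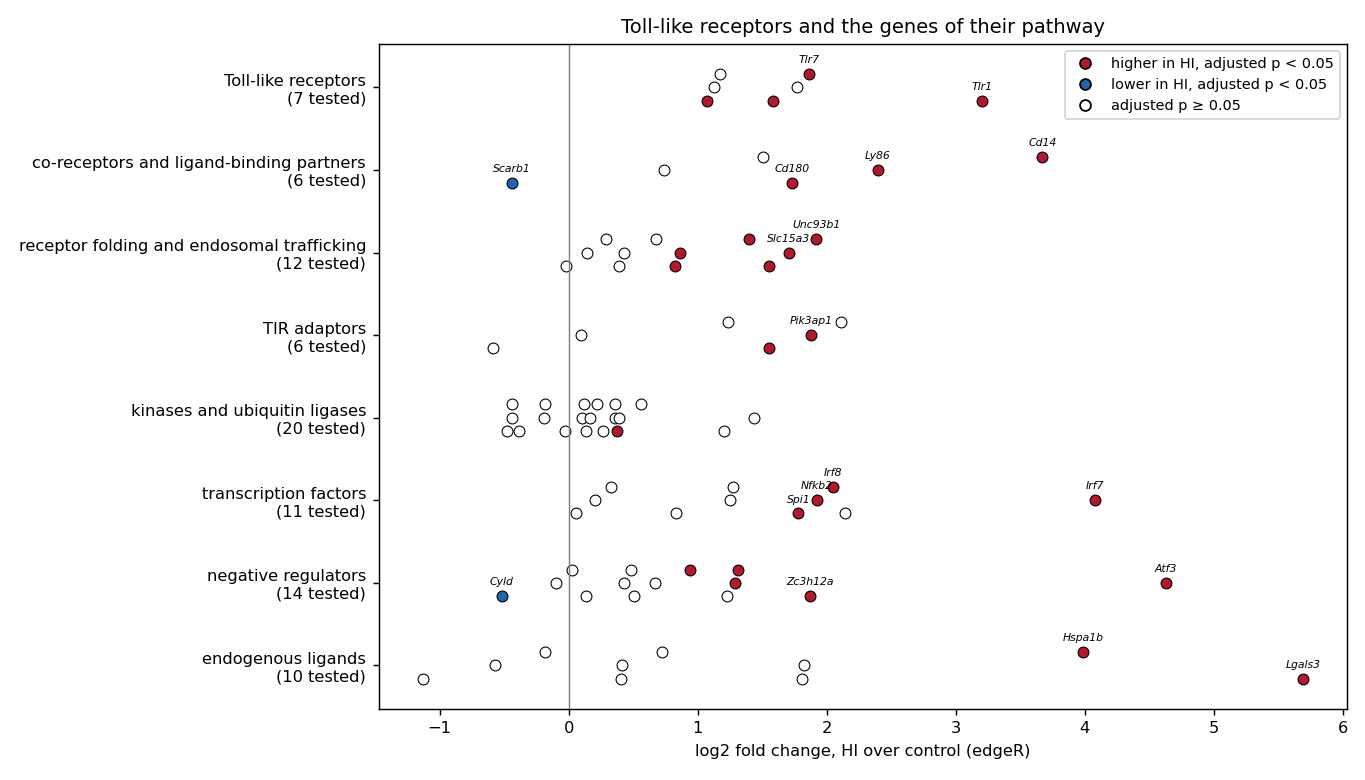
Log2 fold change, HI over control (horizontal axis), of each tested gene of the Toll-like receptors and of the 7 pathway lists (rows), filled red where higher and blue where lower in HI at an edgeR adjusted p below 0.05 and open otherwise, with names at the larger called changes. The kinases and ubiquitin ligases have a median of 0.15 with 1 of 20 called and reach 1.44 for Map3k8, and the endogenous ligands spread from -1.13 for Tnc to 5.69 for Lgals3.

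Most genes of the microglia list were higher in HI as well, its identity genes less so. Of the microglia list 12 of 18 tested genes rose and 0 fell, and the summed level of the 19 members with a row was 465 to 784 CPM in HI and 205 to 300 CPM in control. In libraries of whole tissue more cells of a type and more RNA per cell cannot be told apart. Of 6 tested border macrophage markers 3 rose, Mrc1, Folr2 and Clec10a, of which Folr2 and Clec10a had fewer than 10 reads in every control and entered the test through their HI reads. That list summed to 46.7 to 94.5 CPM in HI and 18.1 to 37.9 CPM in control, and blood neutrophil and monocyte markers to 12.4 to 20.4 CPM in HI and 3.36 to 4.32 CPM in control. In that last list 6 of 10 rows had fewer than 10 reads in every library. Its 3 tested genes, Csf3r, Plac8 and Mmp9, were called higher, but Plac8 and Mmp9 had fewer than 10 reads in every control and entered only through HI, so that their calls carry no weight. Ms4a1, a marker of B cells, and Cd3d, Cd3e and Cd3g, which define T cells, had at most 1 read in any library, whereas Cd79b, another B-cell gene, had 2, 5 and 12 reads in HI 1, 2 and 3, against 4, 0 and 1 in controls 1, 2 and 3. In the lymphocyte list 1 of 2 tested genes was called higher, Cd8a, which had 23, 68 and 69 reads in HI and 1, 4 and 6 in control and also entered only through HI. Of the other lists, 2 of 10 astrocyte and 1 of 8 endothelial genes rose and 0 fell, 2 of 8 oligodendrocyte and 3 of 9 neuron genes fell and 0 rose, and of 4 dendritic cell genes 1 rose and 2 fell. Over all genes tested 6.83% rose and 7.04% fell, and no list was tested against these shares, from which 1 call in a short list cannot be told apart. Choroid plexus markers, of which 0 of 7 passed by edgeR, 2 had an unadjusted p below 0.05 and DESeq2 and limma-voom called 1 and 0, summed to 184, 8063 and 15150 CPM in HI 1, 2 and 3 and to 20.7, 2137 and 12.3 CPM in controls 1, 2 and 3. Within HI they stood in the same order of libraries as 8 of the 9 receptors, while control 2 had a receptor sum of 12.9 CPM, between controls 1 and 3 at 9.77 and 14.2 CPM. The part of these cell types in the receptor differences was not tested.

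Each receptor was also set against the microglia list within its own library, as its log2 CPM minus the mean log2 CPM of the 18 tested list genes, which itself was 1.38 higher in HI. On that scale Tlr7 stood at -1.18, -1.18 and -1.20 in HI 1, 2 and 3, against -1.49, -1.57 and -1.73 in controls 1, 2 and 3. It was 0.41 higher in HI with no overlap (exact permutation test, two-sided, p = 0.10, the smallest value that 3 against 3 libraries allow). Tlr6 stood at -2.05, -2.21 and -2.22 in HI, against -1.61, -1.77 and -2.02 in control, and was thus 0.36 lower in HI relative to the list, also with no overlap (exact permutation p = 0.10). Tlr4 and Tlr9 were likewise lower relative to the list, with differences of -0.34 and -0.27, whereas Tlr2, Tlr3, Tlr5, Tlr8 and Tlr1 were 0.25, 0.13, 0.54, 0.36 and 1.01 higher. For these 7 the groups overlapped (exact permutation p from 0.20 to 0.60). Single libraries moved these differences: without control 2 that of Tlr9 was 0.07, the opposite sign, and with each library left out in turn they ran from 0.08 to 0.56 for Tlr2, 0.01 to 0.33 for Tlr3, 0.20 to 1.14 for Tlr5, 0.14 to 0.75 for Tlr8 and 0.72 to 1.41 for Tlr1. Those of Tlr7 stayed between 0.34 and 0.46 and those of Tlr6 between -0.47 and -0.27.

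The direction depended on which microglia genes were used. Against the 7 tested identity genes of resting microglia (such as P2ry12 and Tmem119), whose mean was 0.52 higher in HI, all 9 receptors were higher in HI, Tlr4, Tlr6 and Tlr9 thus turning their sign, by 0.50 for Tlr6, 0.51 for Tlr4, 0.59 for Tlr9, 0.99 for Tlr3, 1.11 for Tlr2, 1.21 for Tlr8, 1.27 for Tlr7, 1.40 for Tlr5 and 1.86 for Tlr1. For the receptors with few reads these differences are pulled towards 0 by the prior count of 2 reads.

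**Figure D4:**
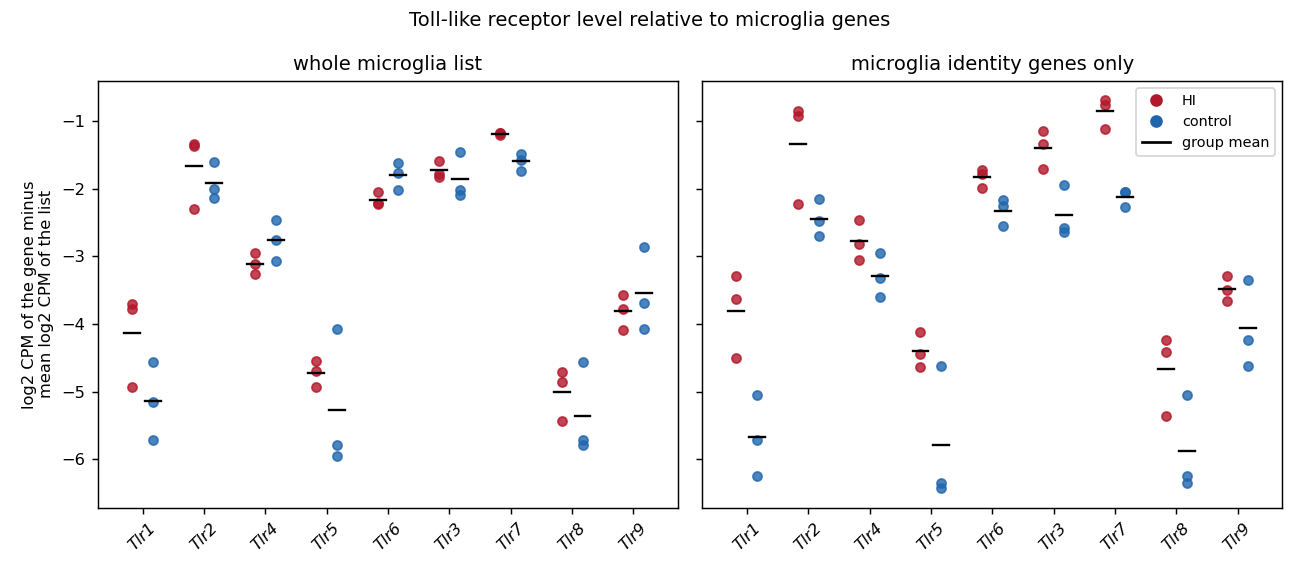
Log2 CPM of each receptor minus the mean log2 CPM of the microglia genes of the same library (vertical axis) in HI (red, left of each pair) and control (blue, right), against the whole list (left panel) and against identity genes alone (right panel), with black bars at group means. Tlr7 is higher and Tlr6 lower in HI without overlap in the left panel, and all 9 means are higher in HI in the right panel.

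The genes whose levels followed each receptor most closely over the 6 libraries were sought among 14528 genes with a mean of at least 1 CPM, by Pearson's r of log2 CPM, as a description with no test. For Tlr7 these were Agtrap, Fermt3 and C1qc (r from 0.998 to 0.999), C1qc being a subunit of the first complement component. For Tlr4 they were Tubb6, Tm4sf1 and Lama5, for Tlr2 Aldh16a1, Cnbp and Alg3, for Tlr3 Atp7a and Scpep1, and for Tlr6 Bag3, Tor1aip1 and Psmb9. For Tlr1 they were Med9 and RGD1561736 and for Tlr9 Btbd7, Apex2 and Ints3. With so few libraries in 2 groups, high values are common: 36 to 996 genes had an r above 0.95 with a given receptor, fewest for Tlr1 and most for Tlr6.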

How the data were processed

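The deposited table holds estimated counts, unscaled, for 6 libraries of rat brain tissue, per the file headers. HISAT2 2.1.0, SAMtools 1.10, StringTie 2.2.1 and assembly Rnor 6.0 are named in the submitters' processing notes, and the labels' protocols name a SMARTER mRNA-Seq kit. How reads were counted (annotation, strand, reads shared by genes) is not given in the sources used here. A gene with a value that was not whole was treated as having shared reads.

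Columns were matched to samples by name, and groups come from the sample titles. Counts were rounded, filtered with filterByExpr (minimum count 10), scaled by TMM and tested by quasi-likelihood in edgeR 4.0.16 (R 4.3.3), with group as the only term, two-sided, and Benjamini-Hochberg adjustment over 14959 genes. The SE was derived from the F statistic. The common biological coefficient of variation was 0.275. The script was tested on simulated data with a smaller spread than that of these libraries, which does not show how firm the calls reported here are. Alternatives were other scalings, DESeq2 1.42.0, limma-voom (limma 3.58.1), other filters, a robust dispersion, a block for replicate numbers and fits without 1 library each. Log2 CPM used a prior count of 2, and permutation tests scipy 1.17.1. The promoter table is of another assembly than the counts, and its positions are those of its own assembly. A planned comparison of levels per coding length was not made, as no protein table was used here. Intervals of read ratios cover counting error only.

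The receptors and all lists were chosen with earlier results of these data known. Besides the 9 receptors, the text names from each pathway list the 3 tested genes with the smallest p, and for each tested receptor the 3 genes most like it, some of which are not reported here.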

Additional observations from a re-analysis of the deposited data

How the results depend on the processing

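Each tested receptor was higher in HI in every alternative that gave it a value, and 0 receptors were called lower in any. The number called higher was 4 as reported, 2 with limma-voom, and 0 to 6 when single libraries were left out. With limma-voom, which called 3.69% of all genes higher, these were Tlr7 and Tlr1, the latter again tested only through its HI reads. The fits without a library called 0 to 2097 genes higher in all. Tlr4 passed with scaling by total counts (edgeR adjusted p = 0.044) and without HI 1 (edgeR adjusted p = 0.0386), and not in the other 13 settings. Tlr9 passed in 0 of 15. Scaling by upper quartiles and by total counts put the median of all genes at 0.14 and 0.23 on the log2 scale, against 0.04 as reported. Tlr1 had no value under a filter of 1 CPM in 3 libraries, since HI 3 did not reach it.

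Pathway genes called higher numbered 23 as reported, 36 with DESeq2, 13 with limma-voom and 0 to 35 when single libraries were left out. Those called lower numbered 2 as reported, 6 with DESeq2, 0 with total counts and 0 to 4 when single libraries were left out. With the replicate number as a block (replicate block), 4 receptors were called higher, Tlr1, Tlr2, Tlr3 and Tlr7, and 18 pathway genes, and 0 pathway genes lower. The correlations of same-numbered libraries around their group means were 0.24, 0.07 and -0.15, and those of differently numbered ones ran from -0.34 to 0.32. With 3 libraries per group these values cannot settle whether same-numbered samples were paired, and the labels give them only a number in common. The cause of the changes between settings was not tested.

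Relative to microglia genes, the identity list moved the difference of HI and control to 1.86 for Tlr1, 1.11 for Tlr2, 0.99 for Tlr3, 0.51 for Tlr4, 0.50 for Tlr6, 1.27 for Tlr7, 1.21 for Tlr8 and 0.59 for Tlr9, which turns the sign for Tlr4, Tlr6 and Tlr9. A prior count of 0.5 gave 1.75 for Tlr5, 1.24 for Tlr8 and 1.67 for Tlr1. Depth limits Tlr1, Tlr5 and Tlr8, each with at most 7 reads in a control.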

Other observations

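The table also holds the other receptors of the rat family, Tlr10 to Tlr13, whose values are given here after they were seen. Tlr13, a receptor that in mice binds bacterial ribosomal RNA, had 54, 97 and 113 reads in HI 1, 2 and 3, against 12, 18 and 28 reads in controls 1, 2 and 3. At 3.61, 6.23 and 6.85 CPM the HI libraries lay above the controls, at 0.909, 1.32 and 2.1 CPM, and the log2 fold change of 1.94 ± 0.42 passed the test (edgeR adjusted p = 0.0345). The other 3 had too few reads for the filter. Tlr10, the neighbour of Tlr1, had 3, 4 and 5 reads in HI and 0 in each control. Tlr11 had 0, 1 and 2 reads in HI and 0 in each control, and Tlr12 had 1, 3 and 4 in HI and 0, 2 and 0 in control. In the edgeR fit without a filter Tlr10 did not pass (adjusted p = 0.0633).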
